A study of Mus musculus with 8 samples.

Results

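Cytochrome P450 genes of families 1 to 3 were described in the livers of 8 mice. They were chosen by name, as the genes for which a probe set of the array lists exactly 1 symbol starting with Cyp1a, Cyp1b, Cyp2 and a letter, or Cyp3a, each gene by its brightest probe set. Of 8252 genes named by the array, 24 met this rule, through 27 probe sets. A further 5 probe sets that list several of these genes at once were left out. The mice were female Ames dwarf mice (df/df), which carry a mutation that leaves the pituitary without cells making growth hormone, prolactin and thyroid stimulating hormone. All 8 were fed 30% less than female df/df mice with free access to the same pelleted diet, had free access to water, and were killed at 24 to 26 months of age. Total liver RNA was read with 1 Affymetrix U74Av2 array per mouse, on which a set of short probes gives a transcript 1 intensity. The 8 mice form 1 group, and neither freely fed dwarf mice nor mice without the mutation were analysed here. Every comparison is therefore between individual livers, and the values carry no measure of the diet or of the mutation. The p-values concern either the spread of a gene over these mice or the relation between a pair of genes or probe sets. With 1 array per mouse, that spread includes the error of the arrays.

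P450 enzymes of these families are heme proteins of the endoplasmic reticulum that oxidise drugs, toxins, steroids and fatty acids with electrons passed on by P450 reductase and cytochrome b5. The genes are expressed mainly by hepatocytes, many of them most strongly around the central vein. Several kinds of signal are known to set their levels: receptors for foreign compounds (the aryl hydrocarbon receptor for Cyp1a genes, CAR for Cyp2b and PXR for Cyp3a genes), the sex-specific pattern of growth hormone, and inflammatory cytokines, which lower many of them.

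Arrays were comparable in scale, with a mean of about 500 on each after trimming, while their medians lay between 145.6 in mouse 5 and 177 in mouse 8. Rank correlations between arrays were between 0.930 and 0.974, and no pair of arrays held identical values. Mouse 5 differed in one sign of RNA quality: the Gapdh control probe sets gave a 3′ over 5′ ratio of 2.67 there, while the other 7 mice ran from 0.794 to 1.07. The corresponding ratio for actin ran from 1.45 to 2.0 and was 1.60 in mouse 5. The hepatocyte gene Alb, which codes for albumin, read between 23417 and 35343. Of the genes that check the female label, the X-linked Xist read 95.8 in mouse 5 and at least 442 in the other mice, and 3 of 3 measured Y-linked genes had means under the floor of 37.2 set on the values.

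The promoters of 6 genes are printed because the results turn on these genes: 4 that ranged widely between livers, Cyp2c70, which was highest in the mice where many others were lowest, and Cyp3a11, which ranged little. Each window holds the 250 bases before the RefSeq start site on build GRCm38.p6, and all 18 genes bright enough to test had such a window. Cyp2b9 (chr7:26173159-26173408, plus strand) and Cyp2b13 (chr7:26061245-26061494, plus strand) lie next to each other among the 24 genes on chromosome 7, and their windows were identical at 248 of 250 positions. Counted from 1 at the 5′ end of the window, the changes from Cyp2b9 to Cyp2b13 were T48C and C104T, shown in capitals.
Cyp2b9: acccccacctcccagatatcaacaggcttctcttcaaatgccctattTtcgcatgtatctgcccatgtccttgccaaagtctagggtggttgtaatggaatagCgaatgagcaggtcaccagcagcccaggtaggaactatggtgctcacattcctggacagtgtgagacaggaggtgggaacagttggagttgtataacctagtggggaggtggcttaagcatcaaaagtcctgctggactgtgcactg
Cyp2b13: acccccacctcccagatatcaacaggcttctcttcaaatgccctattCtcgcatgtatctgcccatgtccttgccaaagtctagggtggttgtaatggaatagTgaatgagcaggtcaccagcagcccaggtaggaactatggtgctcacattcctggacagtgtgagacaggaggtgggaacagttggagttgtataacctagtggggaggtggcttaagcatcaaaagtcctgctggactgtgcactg

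Cyp2c38 (chr19:39463076-39463325, minus strand) and Cyp2c39 (chr19:39510572-39510821, plus strand) were identical at 198 of 221 aligned positions (89.6%). Both held the forkhead motif TGTTTAC, shown in capitals, which 3.17% of 32851 such windows in the RefSeq table hold on either strand. RefSeq gives Cyp2c39 another start site, and the window before it held the motif too.
Cyp2c38: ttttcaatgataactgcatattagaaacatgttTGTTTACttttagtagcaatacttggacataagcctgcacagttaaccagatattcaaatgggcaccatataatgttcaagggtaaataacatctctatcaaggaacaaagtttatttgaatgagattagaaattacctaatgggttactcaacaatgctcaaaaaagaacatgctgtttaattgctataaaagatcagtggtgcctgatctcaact
Cyp2c39: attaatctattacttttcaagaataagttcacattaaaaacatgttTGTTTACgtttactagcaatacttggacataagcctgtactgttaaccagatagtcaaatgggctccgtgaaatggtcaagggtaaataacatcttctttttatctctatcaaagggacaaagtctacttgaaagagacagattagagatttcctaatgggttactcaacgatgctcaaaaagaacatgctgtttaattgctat

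Cyp2c70 (chr19:40187287-40187536, minus strand) and Cyp3a11 (chr5:145879855-145880104, minus strand) each held CAAAGTCCA, an HNF4 motif found on either strand in 0.384% of all windows and in 3 of the 18 genes (Cyp3a16 is the other one). It is shown in capitals.
Cyp2c70: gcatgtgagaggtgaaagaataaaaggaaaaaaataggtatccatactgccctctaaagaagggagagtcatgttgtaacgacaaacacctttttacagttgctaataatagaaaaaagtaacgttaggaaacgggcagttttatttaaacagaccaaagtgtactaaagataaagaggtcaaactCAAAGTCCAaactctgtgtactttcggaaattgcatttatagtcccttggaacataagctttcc
Cyp3a11: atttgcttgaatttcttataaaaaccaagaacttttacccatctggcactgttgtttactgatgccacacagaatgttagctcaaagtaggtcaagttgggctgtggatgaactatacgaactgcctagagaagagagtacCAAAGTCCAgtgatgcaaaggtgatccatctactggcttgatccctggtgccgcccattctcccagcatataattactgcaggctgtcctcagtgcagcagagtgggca

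Of 5 motifs searched on both strands, the forkhead motif was found in 4 of the 18 genes (Cyp2c38, Cyp2c39, Cyp3a11 and Cyp3a16) and the TATA box TATAAA in 11, against 12.4% of all windows. The STAT motif TTCNNNGAA (7.02% of windows) and the PAR bZIP motif TTATGTAA (0.819% of windows) were in 0 of the 18. No match in these genes overlapped a match of another motif. A match describes the letters in this window only.

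Of the 24 genes, 18 had a mean intensity of at least 165.2, the median of the whole table, and were tested. Cyp3a16 lay just inside that limit with a mean of 167.4, and Cyp1a1 was the nearest outside it with 82.3. The 6 genes too dim to test were Cyp1a1, Cyp1b1, Cyp2b19, Cyp2j5, Cyp2j6 and Cyp2s1. Some of them, though not all, are known for expression outside the unstimulated liver, such as Cyp1b1 in stromal tissues and Cyp2b19 in skin. Their means were 82.3, 39.8, 36.9, 58.0, 9.59 and 43.2 in that order, and no reading of any of them in any mouse exceeded 107.6.

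Ranges within the family ran from 1.33-fold for Cyp3a11 to 13.5-fold for Cyp2b13, as the plot of all members by mouse shows. Among the 18 tested genes, 7 ranged at least 2-fold from the lowest to the highest mouse (Cyp2b9, Cyp2b13, Cyp2c29, Cyp2c38, Cyp2c39, Cyp2c70 and Cyp2f2), against 23.4% of the 4869 genes tested. At least 3-fold was reached by 3 of them (Cyp2b9, Cyp2b13 and Cyp2c39), against 8.77% of all genes. The median range was 1.87-fold over the 18 genes and 1.61-fold over all genes, and the median SD of log2 intensity between mice was 0.28 and 0.23. Without mice 6 and 8, the number at 2-fold or more was 3 (Cyp2b13, Cyp2c38 and Cyp2c39), and the median SD was 0.18.

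In limma's F test of spread, which sets the variance of a probe set over the 8 mice against the variance usual at its brightness, 0 of the 18 genes passed at an adjusted p of 0.05. The background was 0% of all genes, and the adjusted p-values of the 18 ran from 0.337 to 0.989. At an unadjusted p under 0.05 there were 3 (Cyp2b9, Cyp2b13 and Cyp2c39), against 5.65% of all genes. The usual variance and its scatter were themselves estimated from these 8 mice, over all probe sets tested. The test therefore asks whether a gene spread unusually widely among the genes here, and cannot decide whether livers differed. Even the inflammation gene Saa3, which ranged 96.8-fold, did not pass (adjusted p = 0.265 in this F test). The ranges below are therefore measured differences between single livers, none of which passed this test of spread after adjustment over the whole table. Each liver was measured on 1 array, so that the error of a single reading is unknown.

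**Figure D1:**
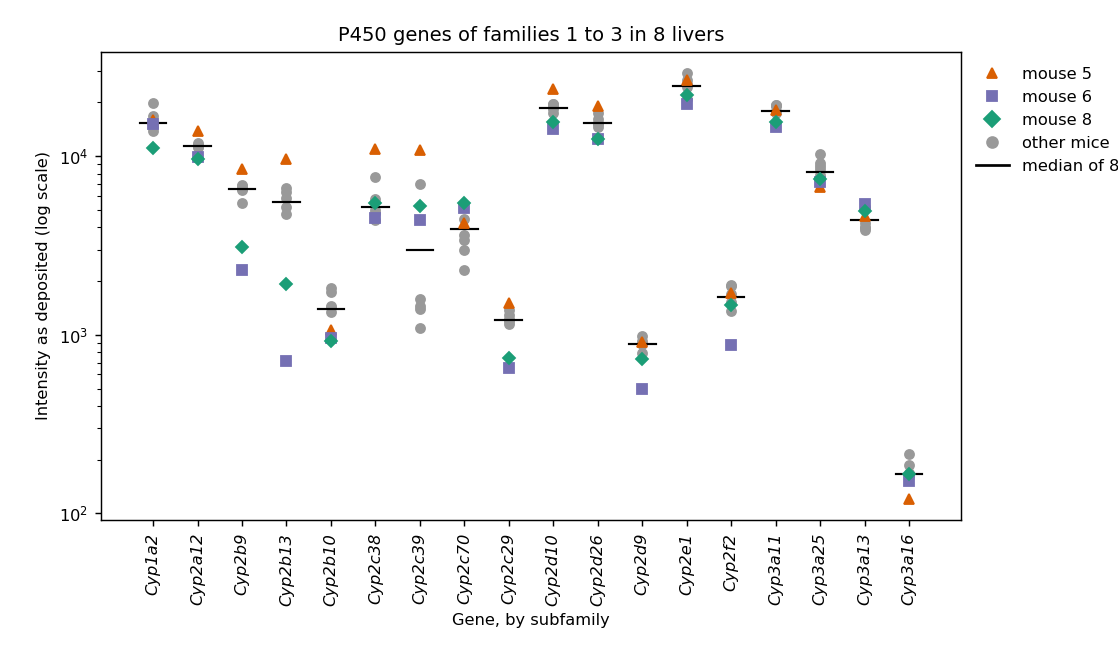
Intensity of the 18 tested P450 genes in each liver, on a log axis, with 1 symbol per mouse and a bar at the median of the 8 mice. Cyp3a11 ranged 1.33-fold and Cyp2e1 1.48-fold, whereas Cyp2b13 ran from 718 in mouse 6 to 9661 in mouse 5 and Cyp2c39 from 1090 in mouse 4 to 10866 in mouse 5.

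**Figure D2:**
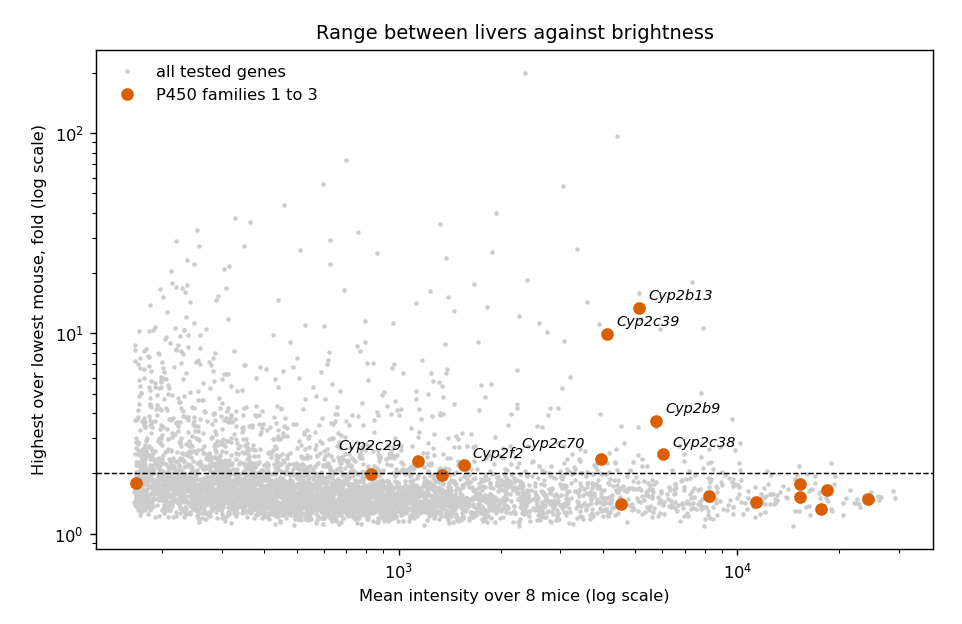
Highest over lowest mouse against mean intensity, both on log axes, for all 4869 tested genes (grey) and the 18 P450 genes (orange), with a dashed line at 2-fold. Cyp2b13 (13.5-fold) and Cyp2c39 (9.97-fold) stand far above the other P450 genes, and 11 of the 18 lie below the line.

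Cyp1 genes are the classical targets of the aryl hydrocarbon receptor. Cyp1a2, which oxidises caffeine and aromatic amines and is made by pericentral hepatocytes without an inducer, averaged 15338 ± 2449 (SD, n = 8). It read 15599, 16698, 19745, 13800, 15946, 15170, 14566 and 11181 in mice 1 to 8, a range of 1.77-fold with the lowest value in mouse 8 and the highest in mouse 3. Cyp1a1, which an agonist of the receptor induces, was dim in every mouse, from 39.6 to 105.4 on its brighter probe set and from 55.8 to 106.7 on the other. Cyp1b1 read between 7.4 and 68.9 on the brighter of its 2 probe sets.

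Cyp2a12, a steroid hydroxylase of mouse liver, averaged 11350 ± 1287 and ranged 1.44-fold. It read 11871, 11288, 11492, 11190, 13908, 9963, 11411 and 9678 in mice 1 to 8. Mice 6 and 8 held its lowest values and mouse 5 its highest, and the remaining 5 mice lay close together.

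Cyp2b genes included the member with the widest range over all 8 mice, Cyp2b13, although without mouse 6 that of Cyp2c39 was wider (9.97-fold against 5.04-fold). Cyp2b9 and Cyp2b13 are steroid hydroxylases known for much higher expression in female than in male mouse liver, and Cyp2b10 is the standard target of CAR. Cyp2b13 read 4729, 5209, 5861, 6650, 9661, 718, 6325 and 1916 in mice 1 to 8. Mouse 6 lay at 0.118 times the median of the 6 mice other than 6 and 8, mouse 8 at 0.314 times, and neither overlapped the other 6, which began at 4729. The gene averaged 5134 ± 2797 and ranged 13.5-fold, a range as wide as or wider than that of 99.0% of tested genes (unadjusted p = 0.00252, adjusted p = 0.343 in limma's F test). Its range was 9.27-fold without mouse 5, 5.04-fold without mouse 6 and 2.04-fold without mice 6 and 8.

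Cyp2b9 followed the same order at the low end. It read 6784, 6591, 5457, 6878, 8442, 2302, 6490 and 3118 in mice 1 to 8, with mice 6 and 8 again below all others and mouse 5 highest. It averaged 5758 ± 2061 and ranged 3.67-fold (unadjusted p = 0.0243, adjusted p = 0.650 in limma's F test). That range was 2.71-fold without mouse 6 and 1.55-fold without mice 6 and 8. Cyp2b10 averaged 1341 ± 337 and ranged 1.96-fold, from 929.5 in mouse 8 and 955.4 in mouse 6, through 1068 in mouse 5, to 1818 in mouse 7, with a median of 1388. Mouse 5, the highest of the 8 for Cyp2b9 and Cyp2b13, was the next lowest after mice 6 and 8 for Cyp2b10.

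Cyp2b9 and Cyp2b13 were highly correlated over the 8 mice on the log2 scale, with Pearson's r = 0.969 (exact two-sided permutation p = 0.00149, adjusted p = 0.00893 over 6 pairs of genes). Spearman's rho was 0.786 (exact permutation p = 0.0279, adjusted p = 0.138), which did not pass after adjustment. The correlation rested in large part on mice 6 and 8: without them r was 0.661 (exact permutation p = 0.153, adjusted p = 0.344). Without mouse 5, 6 or 8 alone r was 0.962, 0.936 and 0.972, each with an adjusted p of 0.0714 by the exact permutation test. The near identity of the 2 promoters printed above is a fact of the reference sequence. Probe sequences were not used here, so how far either probe set also reads the transcript of the other gene was not tested.

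**Figure D3:**
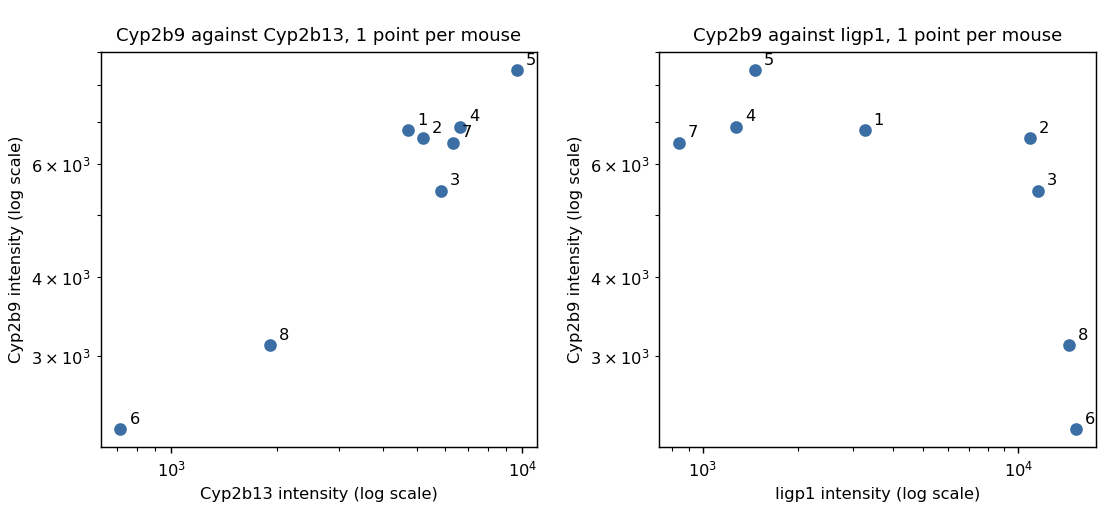
Cyp2b9 intensity against Cyp2b13 (left) and against Iigp1, an interferon-induced GTPase (right), on log axes, with 1 numbered point per mouse. Mice 6 and 8 lie lowest for Cyp2b9 in both panels, and they hold the lowest Cyp2b13 and the highest Iigp1 values.

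Most inflammation genes and macrophage markers were high in mice 6 and 8, where many P450 genes were low. The T cell genes Cd3e and Cd4 and the B cell markers did not peak there. Iigp1 was highest in mouse 6 (15220) and mouse 8 (14442), and the other 6 mice ran from 839 to 11521. Across the 8 mice Cyp2b9 and Iigp1 had r = -0.70 (exact two-sided permutation p = 0.0384, adjusted p = 0.115) and rho = -0.74 (exact permutation p = 0.0458, adjusted p = 0.138). Neither passed after adjustment, and r was -0.76 without mice 4 and 7, the 2 farthest from the median of Iigp1. Without mice 6 and 8 r was -0.56 (adjusted p = 0.435 by the exact permutation test). With single mice left out it passed only without mouse 2 (r = -0.81, adjusted p = 0.0423 by the exact permutation test), in which Iigp1 was high (10908) and Cyp2b9 (6591) close to its median of 6540.1.

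Of 21 inflammation genes 19 were measured and 16 tested, of which 14 ranged at least 2-fold, 14 had an unadjusted p under 0.05 and 0 passed limma's F test after adjustment. Their summed intensity was highest in mouse 6 (142429) and mouse 8 (140355), and no other mouse exceeded 91859. Saa3, an acute phase gene, ranged widest, from 124.3 in mouse 7 to 12035 in mouse 8. Not all of the list was high in both mice. Hp was highest in mouse 3 (29120), with 19276 in mouse 6 and 21792 in mouse 8. Stat3 was highest in mouse 6 (1821) but read 1028 in mouse 8, below its median of 1100. The 10 macrophage markers, all 10 measured and 0 with a mean under the floor, summed to 29911 in mouse 6, 19033 in mouse 8 and at most 10304 elsewhere. Of these markers Clec4f went another way, highest in mouse 2 (1361.8), with 1221 in mouse 6 and 747 in mouse 8. Of 8 T and NK cell markers 7 were measured, summing to 3091 in mouse 6, 2900 in mouse 8 and at most 1426 elsewhere. Most of the sum in these 2 mice came from the chemokine gene Ccl5 (2069 and 1685) and the cytokine gene Ltb (651 and 824). The T cell genes Cd3e and Cd4 were highest in mouse 1 (112.9) and mouse 3 (344.8), and Cd3d, Cd3g and Cd8a had means under the floor. The 6 measured of 7 B and plasma cell markers were lowest in mouse 8 (1624), at 1723 in mouse 6 and highest in mouse 4 (2190.4). The 4 neutrophil markers summed to 978.8 in mouse 6 and at most 444 elsewhere. The 6 measured hepatocyte markers summed to 74140 in mouse 6, 78204 in mouse 8, 75484 in mouse 7 and between 85970 and 103195 in the rest. These markers did not move together. Alb, Ttr and Tat were lower in mice 6 and 8 than in all other mice, and Apoa1 was lowest in mouse 7. Fgb was highest in mouse 6 (11027.5), and Apob read 6506 in mouse 8, above its median of 3339. The part of these markers in the P450 values was not tested. In RNA from whole liver, fewer hepatocytes and less P450 RNA per hepatocyte cannot be told apart.

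Cyp2c genes, which oxidise arachidonic acid, retinoids and many drugs, all ranged at least 2-fold (4 of 4 tested). Cyp2c39, known as a retinoic acid hydroxylase, read 1587, 1395, 1457, 1090, 10866, 4383, 7004 and 5275 in mice 1 to 8. The mice fell into 2 sets that did not overlap. Mice 1 to 4 lay between 1090 and 1587, mice 5 to 8 between 4383 and 10866, and the lowest of the upper set was 2.76 times the highest of the lower. A gap of over 2-fold between the lower 4 and the upper 4 mice, whichever mice these were, was present in 13 of 4869 genes (0.267%), a measure chosen after the Cyp2c39 values were seen. The share of genes that split mice 1 to 4 from mice 5 to 8 was not computed. G6pc, of the periportal list, split them too, with 541 to 2648 in mice 1 to 4 and 3830 to 4958 in mice 5 to 8. The gene ranged 9.97-fold (unadjusted p = 0.00215, adjusted p = 0.337 in limma's F test) and 6.43-fold without mouse 5. The labels name no batch or other difference between these mice, and the mice of the upper set include both mice with high Iigp1 (6 and 8) and mice with low Iigp1 (5 and 7).

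Cyp2c38, close to Cyp2c39 on the chromosome and in its promoter, read 4376, 5762, 4779, 4978, 10929, 4488, 7660 and 5444 in mice 1 to 8. Mice 5 and 7 were highest for both genes, but mice 6 and 8 stood with mice 1 to 4 for Cyp2c38 and well above them for Cyp2c39. Cyp2c38 ranged 2.50-fold, and 1.75-fold without mouse 5. It is read by a probe set that shares probes with related transcripts, so its name is uncertain within the Cyp2c subfamily.

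Cyp2c29, a CAR-responsive member, averaged 1141 ± 298 with a median of 1213 and ranged 2.32-fold, from 648 in mouse 6 and 742 in mouse 8 to a lowest value of 1143 and a highest of 1501 in the other 6 mice. As for Cyp2b9, mice 6 and 8 lay below all others, and its range was 1.31-fold without mice 6 and 8. Cyp2c70, which makes muricholic acids from chenodeoxycholic acid in mice, ran the other way. It averaged 3947 ± 1068 with a median of 3930.0, and held the 2 highest values in mouse 8 (5448) and mouse 6 (5140), at 1.56 and 1.47 times the median of the other 6, and the lowest in mouse 2 (2317). Its unadjusted p was 0.104 in limma's F test.

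**Figure D4:**
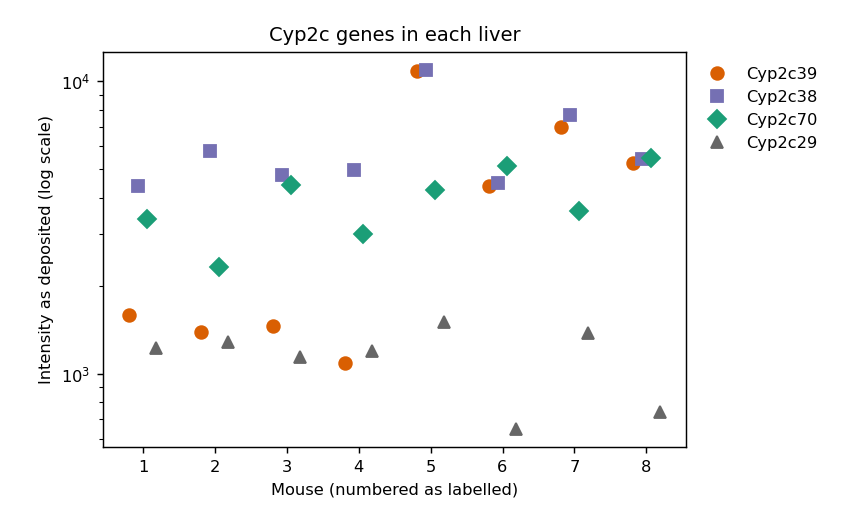
Intensity of the 4 tested Cyp2c genes in each liver on a log axis, with 1 symbol per gene and mice numbered as labelled. Cyp2c39 lies between 1090 and 1587 in mice 1 to 4 and between 4383 and 10866 in mice 5 to 8, while Cyp2c29 is lowest in mice 6 and 8.

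Cyp2d genes code for enzymes that oxidise many basic drugs and steroids, and the 3 tested stayed within 2-fold. Cyp2d10 averaged 18443 ± 2843 and read 19529, 19172, 19544, 18264, 23654, 14252, 17518 and 15608 in mice 1 to 8. Mouse 6 was lowest, mouse 8 next and mouse 5 highest, a range of 1.66-fold. The brighter probe set of Cyp2d10 shares probes with related transcripts. The other is not marked as shared by its name, though whether it also reads related transcripts was not tested. This second probe set ranged from 6181 in mouse 6 to 9781 in mouse 3. It correlated with the brighter one at r = 0.856 (exact permutation p = 0.00652) and rho = 0.857 (exact permutation p = 0.0107), with r = 0.712 without the 2 mice farthest from the median. Cyp2d26 averaged 15354 ± 2281 with a median of 15254 and ranged 1.53-fold, lowest in mice 8 (12467) and 6 (12548) and highest in mouse 5 (19110). Cyp2d9, known as a male-biased steroid hydroxylase, read 991, 790, 923, 886, 915, 500, 893 and 730 in mice 1 to 8, with mouse 6 apart from the rest and a range of 1.98-fold, or 1.36-fold without it.

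Cyp2e1, which oxidises ethanol and acetone, ranged 1.48-fold and read 26546, 24350, 29133, 25361, 26808, 19662, 20848 and 22019 in mice 1 to 8. Mouse 6 was again lowest, but mouse 7 came next, so that mice 6 and 8 did not stand together. Cyp2f2, a naphthalene-oxidising enzyme of periportal hepatocytes and airway cells, read 1702, 1876, 1361, 1912, 1705, 872, 1535 and 1474. Mouse 6 stood apart at the low end, and the range of 2.19-fold was 1.40-fold without it. Mouse 8 lay inside the range of the other mice for this gene.

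Cyp3a genes, the main drug-oxidising enzymes controlled by PXR, all ranged less than 2-fold (4 of 4 tested). Cyp3a11 averaged 17696 ± 1764 and read 19320, 19038, 19437, 17568, 18133, 14605, 17894 and 15571 in mice 1 to 8. Mice 6 and 8 were lowest and did not overlap the other 6, yet the whole range was 1.33-fold, and 1.11-fold without them. Cyp3a25, another member of the cluster, was lowest in mouse 5 (6736) and highest in mouse 4 (10347), a range of 1.54-fold around a median of 8164. Cyp3a13, a member also made in the intestine, ranged 1.41-fold around a median of 4415 and was highest in mouse 6 (5431), with mice 1 to 4 (3859 to 4226) below mice 5 to 8 (4604 to 5431). Cyp3a16, known as a fetal and female form, read 186, 215.3, 163.4, 168.7, 120.9, 151.8, 167 and 166.4 in mice 1 to 8, on a probe set that shares probes with related transcripts.

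The members were then set beside each other by mouse, as the map of deviations shows, a step chosen after the values were seen. Mouse 6 held the lowest value of 8 of the 18 genes, against 18.4% of all genes tested, and mouse 8 that of a further 4, against 11.7%, which makes 12 for the 2 mice together, against 30.1%. Both mice lay below all other 6 in 9 of the 18 (Cyp2a12, Cyp2b9, Cyp2b10, Cyp2b13, Cyp2c29, Cyp2d9, Cyp2d10, Cyp2d26 and Cyp3a11), against 13.0% of all genes. With each array divided by its median this count was 12, against 21.2% of all genes, and with quantile normalization it was 7, against 14.9%. The 18 genes were brighter than most, with a median of mean intensities of 5446 against 582 over all genes. With the brightness filter at 2 times the median the count was 9 of 17, against 15.9%. A share among genes of like brightness was not computed. The pattern was not confined to the P450 genes. Alb, Ttr, Tat, Cps1, Cebpa, Alas1 and Cyb5a also had both mice below the other 6. Aldh1a1, Apoa1, Apob and Fgb did not. The size of the gap differed: relative to the median of the other 6 mice, mouse 6 lay at 0.118 times for Cyp2b13, 0.344 for Cyp2b9, 0.517 for Cyp2c29, 0.663 for Cyp2b10 and 0.786 for Cyp3a11. Mouse 6 or mouse 8 held the highest value of 2 genes, Cyp2c70 and Cyp3a13, against 26.7% of all genes. With arrays divided by their medians Cyp3a13 was highest in mouse 5 instead.

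Mouse 5 held the highest value of 8 of the 18 genes (Cyp2a12, Cyp2b9, Cyp2b13, Cyp2c29, Cyp2c38, Cyp2c39, Cyp2d10 and Cyp2d26), against 20.8% of all genes. With arrays divided by their medians, which raises mouse 5 by 0.18 on the log2 scale, that count was 12, against 38.1% of all genes. This is the mouse with the high Gapdh 3′ over 5′ ratio, and the part of RNA quality in these values was not tested.

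**Figure D5:**
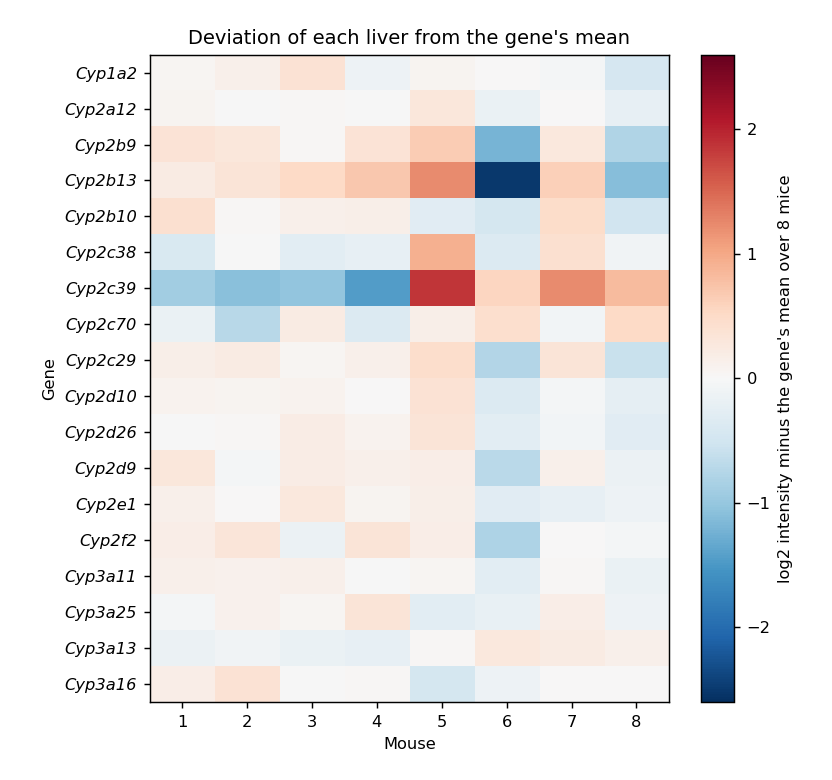
Log2 intensity of each liver minus the mean of the gene over the 8 mice, for the 18 tested genes (rows) and the mice (columns), with red above and blue below the mean. Columns 6 and 8 are blue for most genes but red for Cyp2c39, Cyp2c70 and Cyp3a13, and Cyp2c39 is blue in mice 1 to 4.

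Pairs of a P450 gene with its regulator or with a gene of the same zone of the liver lobule were tested next, 6 pairs in all with those given above. A pair was left untested where a gap between neighbouring mice took up over 0.5 of the range of either gene. Cyp1a2 and the aryl hydrocarbon receptor gene Ahr had r = -0.24 (exact permutation p = 0.549, adjusted p = 0.549) and rho = -0.17 (exact permutation p = 0.703, adjusted p = 0.703). Without mice 1 and 5, the farthest from the median of Ahr, r was -0.26, and with quantile normalization it was 0.0689, so no direction is given. Ahr read between 316 in mouse 5 and 544 in mouse 6.

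Cyp2b10 and the CAR gene Nr1i3 had r = 0.647 (exact permutation p = 0.0895, adjusted p = 0.179) and rho = 0.429 (exact permutation p = 0.299, adjusted p = 0.449). The relation rested on mice 6 and 8, without which r was -0.18. Nr1i3 ranged 1.43-fold, with its lowest values in mouse 8 (5537) and mouse 6 (5836). Cyp3a11 and Iigp1 had r = -0.34 (exact permutation p = 0.414, adjusted p = 0.496) and rho = -0.21 (exact permutation p = 0.619, adjusted p = 0.703), and r was -0.45 without mice 4 and 7 but 0.858 without mice 6 and 8, so no direction is given.

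Cyp1a2 and Cyp2e1, both pericentral, had r = 0.564 (exact permutation p = 0.143, adjusted p = 0.215) and rho = 0.595 (exact permutation p = 0.132, adjusted p = 0.265), and r was 0.869 without mice 6 and 7. That sign turned with quantile normalization (r = -0.56), so no direction is given. The PXR gene Nr1i2 fell into 2 sets, 412.1 and 412.6 in mice 5 and 6 and 604 to 682 in the other 6. Its correlation with Cyp3a11 was therefore left untested. In those 2 mice Cyp3a11 read 18133 and 14605, one inside and one below the range of the others. The pairs of Cyp2e1 with Glul and with Cyp2f2 were left untested because 1 mouse lay apart. This was mouse 4 for Glul (699.7, the others at least 864) and mouse 6 for Cyp2f2 (872, the others at least 1361).

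The other genes of the pathway were read from lists. Of 33 regulators of hepatic P450 genes 30 were measured and 24 tested; 0 passed limma's F test after adjustment, 3 had an unadjusted p under 0.05 (Ppara, Hnf4a and Dbp) and 6 ranged at least 2-fold, with a median range of 1.72-fold. The shares of all genes given above, 5.65% with such a p and 23.4% at 2-fold or more, and the median of 1.61-fold, stand beside this list and those that follow. Ppara, the fatty acid receptor that drives Cyp4a genes, was lowest in mouse 6 (344) and highest in mouse 3 (3038), 8.84-fold apart. Hnf4a, which maintains hepatocyte gene expression, read 266 in mouse 5 and at least 702.5 elsewhere, up to 1308. Arnt, the partner of the aryl hydrocarbon receptor, read 124 in mouse 5 and at least 342 elsewhere, up to 409. Mouse 5 also had the high Gapdh 3′ over 5′ ratio (2.67) and the lowest Xist (95.8) and Apob (1839), and the part of RNA quality in these values was not tested. Dbp, the clock factor known to bind the Cyp2a promoter, was lowest in mice 6 (762) and 8 (856) and ranged 2.70-fold. Cebpa, the liver bZIP factor, averaged 10114 and ranged 1.72-fold.

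Genes of electron transfer and heme supply, 15 measured and tested of 18, had a median range of 1.51-fold; 0 passed after adjustment, 1 had an unadjusted p under 0.05 and 3 reached 2-fold. Cyb5a, which codes for cytochrome b5, was lowest in mouse 6 (10491) and highest in mouse 2 (15077), 1.44-fold apart. Alas1, the rate-limiting enzyme of heme synthesis, was lowest in mouse 6 (9913) and highest in mouse 5 (13893), 1.40-fold apart. Hmox1, which degrades heme and is induced by stress, was highest in mouse 6 (3501) and mouse 8 (1638), with the other mice from 730.0 to 1125 (unadjusted p = 0.0144 in limma's F test).

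Summed intensity of the pericentral markers was lowest in mouse 6 and that of the periportal markers in mouse 8. These sums weigh the brightest genes most, and single members differed. Of the pericentral genes, Glul in mouse 6 (896) lay near its median (906), and Slc1a4 was highest there (540). Of the periportal genes, Cdh1 was highest in mouse 8 (568). Of the pericentral list 8 of 13 genes were tested, with a median range of 1.62-fold and 3 at 2-fold or more. Its brightest member Aldh1a1 ranged 1.37-fold, and Cyp7a1, the first enzyme of bile acid synthesis, 3.88-fold with low values in mouse 6 (258) and mouse 5 (337). Of the periportal list 10 of 15 were tested, with a median range of 1.70-fold and 4 at 2-fold or more. Cps1, its brightest member, ranged 1.41-fold, and Ctsc, also expressed by leukocytes, 11.6-fold with the highest value in mouse 6 (2649). No gene of either list passed limma's F test after adjustment (0 of 8 and 0 of 10), and 1 and 2 had an unadjusted p under 0.05.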

How the data were processed

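Intensities, as deposited, are on a linear scale, with 12488 probe sets on each of 8 arrays. Per the labels, arrays were scanned on a Hewlett-Packard GeneArray scanner, and the software and scaling target are not given in the sources used here. Means trimmed by 2% at each end agree between arrays, so the deposited intensities were taken as already scaled. All 8 columns matched a mouse by its label. Lower values were set to 37.2 (25th percentile of all values) before taking log2. Leaving out the 66 control sets, 6265 sets averaging 165.2 or more were tested. Names came from the platform annotation (10855 probe sets with 1 symbol, 396 with several, 1237 with none). A gene was represented by its brightest probe set, which left 4869 named genes.

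Spread was tested with limma 3.58.1 in R 4.3.3: a one-sided F test of each variance (7 degrees of freedom) against the robust brightness trend (3.80 prior degrees of freedom), with Benjamini-Hochberg adjustment over all probe sets. The code was run on simulated data whose true variances lay on the trend except in planted rows. That setting lacks the further spread between genes in these data, so it does not give the power of the test here. Of 10 planned pairs of genes 6 could be tested, by exact permutation over 40320 pairings with adjustment over the 6. Of the other 4, 3 had a gap between neighbouring mice of over 0.5 of a gene's range, and for 1 (Cyp2a5 and Dbp) no probe set lists Cyp2a5 alone. Genes were named by rule: all members, with every mouse for the brightest and widest ranging of each subfamily, and list genes by brightness, range or pair. Dbp, Hnf4a, Arnt, Alas1, Xist, Apob and the immune cell genes other than Iigp1 and Saa3 fall outside this rule and were added after their values were seen. So do Apoa1, Cdh1, Fgb, G6pc, Slc1a4, Stat3, Tat and Ttr, also added after their values were seen. Members and lists were chosen with earlier results of these data known. Levels of different probe sets were not compared, apart from the median brightness of the 18 genes and of all genes. Alternatives covered the floor, filter, scaling, probe set choice, prior and each mouse left out.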

Additional observations from a re-analysis of the deposited data

Results flagged for a closer look

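In 6 of the tested genes examined 1 mouse stood apart, with a gap to the nearest other mouse, as a share of the range of the 8 log2 values, above the 95% critical value of Dixon's test, which chance exceeds in about 1 of 20 groups. Among the P450 genes these were Cyp2f2, low in mouse 6 (872 against at least 1361, a gap of 0.567 of the range), and Cyp2d9, low in mouse 6 (500 against at least 730, a gap of 0.554). Of the other genes, Arnt (0.850 of the range), Hnf4a (0.610) and Xist (0.547) were low in mouse 5, the mouse with the high Gapdh 3′ over 5′ ratio, and Hp, a haptoglobin gene of the inflammation list, was high in mouse 3 at 29120 (0.565). The share of all tested genes past this value was not computed, so no excess is claimed for the P450 genes. Arnt, Hnf4a and Xist had been named after their values were seen. Apoa1, Cdh1, Clec4f, Fgb, G6pc, Slc1a4, Stat3, Tat and Ttr were not examined in this way, so the 6 are not a full count. Among these, 1 mouse lay well away from the rest for 3 genes. They were Fgb (6095 in mouse 5, the others at least 8538), Stat3 (1821 in mouse 6, the others at most 1295) and Slc1a4 (158.6 in mouse 3, the others at least 314.8).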

How the results depend on the processing

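The count of members passing limma's F test of spread after adjustment was 0 in all 18 alternatives, and the count at an unadjusted p was 2 or 3. The count at 2-fold or more was 7, lay between 6 and 10 in 16 of 18 alternatives, and was 3 without mice 6 and 8 (chosen after seeing the data) and 3 by the second highest over the second lowest mouse. The median SD of 0.28 was 0.18 without mice 6 and 8 and between 0.23 and 0.32 with any 1 mouse left out. The correlation of Cyp2b9 and Cyp2b13 kept its sign in 15 of 15 alternatives. It lay between 0.936 and 0.980 with 1 mouse left out (adjusted exact permutation p from 0.0107 to 0.0714) and at 0.661 without mice 6 and 8 (0.344). That of Cyp2b9 and Iigp1 lay between -0.81 and -0.64 with 1 mouse left out and passed only without mouse 2. The other 4 pairs passed in none of 15 alternatives each, and each turned its sign in 1: Cyp1a2 with Ahr (0.0689) and with Cyp2e1 (-0.56) under quantile normalization, Cyp2b10 with Nr1i3 (-0.18) and Cyp3a11 with Iigp1 (0.858, adjusted exact permutation p = 0.317) without mice 6 and 8. The cause of these changes was not tested. Leaving mice out also raises the smallest p that can be reached, which does not bear on the sign of r. No paired analysis was possible because there is 1 group. The number of arrays limits the precision, and each mouse was measured once.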

Other observations

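The 5 probe sets that list several P450 genes of these families, and therefore enter none of the counts, had mean intensities between 10058 and 24788. Their ranges between mice were 1.36-fold, 1.43-fold, 1.46-fold, 1.96-fold and 2.21-fold. No gene is named from them.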
